A study of Mus musculus with 2 samples.

Results

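The cells described here are 829 dendritic cells (DCs) with a high count of transcripts of the early growth response genes Egr2 and Egr3, out of 15480 cells that passed the filters on cells. They were chosen on raw counts of unique molecular identifiers (UMIs, each standing for 1 captured transcript). A member had at least 3 UMIs of Egr2 and Egr3 together, at least 1 UMI of Sirpa, a surface receptor of the conventional type 2 DC (cDC2), at most 1 UMI of Tnfsf9, at most 1 of Xcr1 and Clec9a together, at most 1 of Fscn1, and fewer than 10 of C1qa, C1qb and C1qc together. Tnfsf9 marks an activated DC state, Xcr1 and Clec9a mark cDC1, Fscn1 marks migratory DCs, and the C1q genes mark macrophages, so the gate keeps those cells out. The main reference was the 3801 cells of the same gate with no Egr2 or Egr3 UMI, called Egr-zero cells, and the members are called Egr-high cells.

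All cells came from untreated mice, 15 days old, that carry the Gm38411-iCre-hCD2 reporter, and no mice without the reporter were part of the series. They were sorted as CD3-B220-CD11c+MHC-II+ DCs from the mesenteric lymph nodes and the small intestinal lamina propria, with 3 biological replicates per tissue. Each replicate carried its own hashtag antibody (hashtags 2, 4, 5, 6, 8 and 9) and all were run in 1 pool by droplet sequencing of transcript 3' ends. Neither the tissue behind a given hashtag nor the number of mice in a replicate is stated, so tissues were not compared and each hashtag served as 1 replicate.

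Egr2 and Egr3 encode zinc-finger transcription factors of the immediate early class, whose transcripts appear within minutes of a stimulus and are short-lived. The nuclear receptors of the NR4A family (Nr4a1, Nr4a2, Nr4a3) and the AP-1 factors (Fos, Jun, Atf3) belong to the same class. In intestinal tissue, cDC2 take up antigen and carry it along a CCR7-dependent route to the draining lymph node, and Ccl3 and Ccl4 encode chemokines that attract T cells and monocytes.

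Promoter stretches are shown for 5 genes that were among the gate genes or higher in these cells, as context for the values that follow. They were picked after the matches had been seen, because each holds one of the motifs searched. The sequences are from RefSeq on build GRCm38.p6, hold the 250 bases before the transcription start, run 5' to 3' on the gene's strand, and have the matched motif in capitals. The Egr2 stretch (chr10:67537619-67537868, plus strand) holds a CArG box, the element bound by serum response factor.
Egr2: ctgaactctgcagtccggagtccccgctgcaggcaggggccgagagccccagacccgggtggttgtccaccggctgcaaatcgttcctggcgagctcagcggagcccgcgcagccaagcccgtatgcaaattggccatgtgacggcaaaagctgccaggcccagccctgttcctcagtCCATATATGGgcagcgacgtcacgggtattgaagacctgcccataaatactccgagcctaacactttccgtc
Zfp36: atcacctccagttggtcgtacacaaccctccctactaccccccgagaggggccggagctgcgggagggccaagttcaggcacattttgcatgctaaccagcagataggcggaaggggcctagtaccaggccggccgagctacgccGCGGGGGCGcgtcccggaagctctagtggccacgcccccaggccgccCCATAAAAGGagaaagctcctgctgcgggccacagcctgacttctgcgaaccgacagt
Nr4a2: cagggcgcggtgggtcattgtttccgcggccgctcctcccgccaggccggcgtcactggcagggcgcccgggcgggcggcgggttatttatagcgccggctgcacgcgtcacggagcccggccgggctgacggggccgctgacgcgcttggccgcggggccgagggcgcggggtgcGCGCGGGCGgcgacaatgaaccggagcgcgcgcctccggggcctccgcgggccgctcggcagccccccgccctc
Rasgef1b: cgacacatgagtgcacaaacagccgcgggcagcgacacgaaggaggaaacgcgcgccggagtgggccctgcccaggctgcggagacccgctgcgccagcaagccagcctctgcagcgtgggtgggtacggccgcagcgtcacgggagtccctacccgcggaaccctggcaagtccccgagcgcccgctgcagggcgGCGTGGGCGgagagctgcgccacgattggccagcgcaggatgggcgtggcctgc
Rcan1: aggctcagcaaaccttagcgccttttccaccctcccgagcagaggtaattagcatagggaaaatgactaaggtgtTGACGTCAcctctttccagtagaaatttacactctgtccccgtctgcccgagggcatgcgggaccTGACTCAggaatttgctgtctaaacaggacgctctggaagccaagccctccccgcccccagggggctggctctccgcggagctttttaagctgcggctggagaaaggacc
The Zfp36 stretch (chr7:28379229-28379478, minus strand) holds an EGR motif and then a CArG box, and the gene encodes a protein that speeds the decay of cytokine transcripts. The Nr4a2 stretch (chr2:57124004-57124253, minus strand) and the Rasgef1b stretch (chr5:99252928-99253177, minus strand) hold EGR motifs. Rcan1 (chr16:92400079-92400328, minus strand), which encodes a calcineurin inhibitor induced by calcineurin signalling, holds a cyclic AMP response element and an AP-1 site.

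The motifs were searched on both strands of windows from 250 bases before to 50 after each start: EGR as GCGNGGGCG, the cyclic AMP response element as TGACGTCA, AP-1 as TGANTCA, the NR4A element as AAAGGTCA, and the CArG box by name. The EGR motif was in 5.55% of all 32851 windows, the cyclic AMP response element in 1.79%, AP-1 in 7.81%, the NR4A element in 1.51% and the CArG box in 1.63%. Counted by gene, the EGR motif was in 31 of the 174 genes with a window that were called higher in Egr-high cells (17.8%), in 7 of 91 called lower (7.69%) and in 1090 of all 9192 tested genes with a window (11.9%). The cyclic AMP response element was in 14 of 174 genes called higher (8.05%), 3 of 91 called lower (3.30%) and 338 of 9192 tested (3.68%). AP-1 was in 10.3%, 7.69% and 6.07% of the same sets. The motifs were chosen after some matches had been seen and no test was made, and a match is a description of letters.

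The gate left 507 members with Egr3 UMIs alone, 22 with Egr2 UMIs alone and 300 with both. The median member had 5 Egr UMIs and the highest 53. Just inside the threshold, 239 members had exactly 3 UMIs, and just outside it 472 cells of the same gate had 2. In all, 2054 cells that passed the filters had at least 3 Egr UMIs. Of those left out, counted with overlaps, 590 had more than 1 Tnfsf9 UMI, 573 had no Sirpa UMI, 441 had more than 1 Xcr1 or Clec9a UMI, 61 had more than 1 Fscn1 UMI and 29 had at least 10 C1q UMIs.

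Egr-high cells were not evenly spread over the replicates. There were 12 in hashtag 2, 6 in hashtag 4, 26 in hashtag 5, 199 in hashtag 6, 179 in hashtag 8 and 407 in hashtag 9, so that 785 of the 829 came from hashtags 6, 8 and 9. As a share of the gate at any Egr count (6118 cells), this was 2.01% in hashtag 2, 0.920% in hashtag 4, 4.42% in hashtag 5, 17.2% in both hashtags 6 and 8, and 19.6% in hashtag 9. The 95% Wilson intervals, which cover counting error only, ran from 0.422% to 6.40% over hashtags 2, 4 and 5 (the low trio) and from 15.0% to 21.3% over hashtags 6, 8 and 9 (the high trio), so the trios did not overlap. Depth moved with the share. The median UMI count of Egr-zero cells was 5429 to 5926.5 in hashtags 2, 4 and 5 and 10797 to 11520 in hashtags 6, 8 and 9, and the median mitochondrial share was 4.11% to 4.31% against 1.46% to 1.58%. With each cell thinned to 3000 UMIs and a threshold of 2, the shares were 1.17%, 1.64% and 3.92% in the low trio (hashtags 2, 4 and 5) against 9.51%, 8.18% and 10.5% in the high trio. This left out 85, 104, 129, 65, 89 and 97 shallower cells of the 6 hashtags in the same order.

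**Figure D1:**
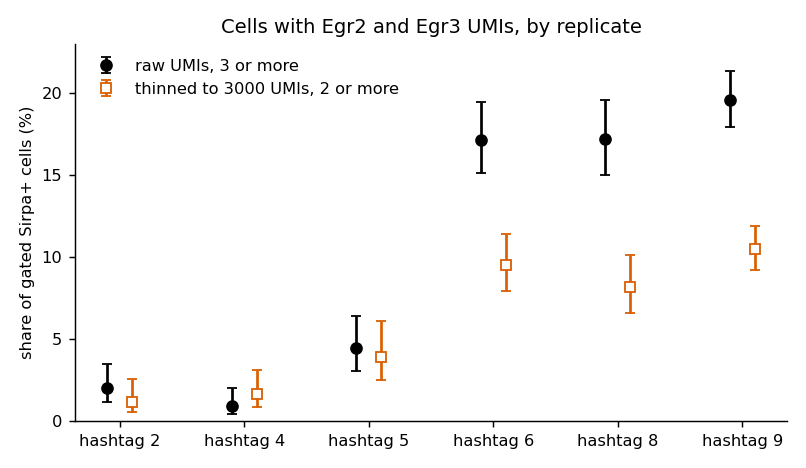
Share of Sirpa-positive gated cells (y axis, %) that held Egr2 and Egr3 UMIs in each of the 6 hashtags (x axis), with 95% Wilson intervals. Filled circles are raw UMIs at a threshold of 3, and open squares are cells thinned to 3000 UMIs at a threshold of 2. Hashtags 6, 8 and 9 lie between 17.2% and 19.6% on raw counts and between 8.18% and 10.5% after thinning, above hashtags 2, 4 and 5 on both.

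The same Egr count was also met outside the gate. It was reached by 23.6% of the 1959 Tnfsf9-positive cells (median 13867 UMIs), 17.4% of the 2530 cells of the cDC1 gate (15858.5 UMIs), 8.50% of the 341 cells with C1q transcripts (13398 UMIs) and 3.73% of the 1634 Fscn1-positive cells (10584 UMIs). Among the 296 cells with at least 2 Cd3 UMIs, it was reached by 3.38% (median 7257.5 UMIs), against 13.6% of the Sirpa gate (median 10099 UMIs). T cells can express both genes on activation, so this share is not a pure background. Within hashtag 4 it was 7.79% of 77 Cd3-positive cells, above the 0.920% of the Sirpa gate there, so the hashtag 4 members are not read as a signal. Free RNA, taken from barcodes with at most 100 UMIs, held 83.3 UMIs of Egr3 per 1000000 (CPM) and 19.6 CPM of Egr2.

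Levels below are CPM, the UMIs of a gene scaled to 1000000 UMIs summed over all cells of a state in a hashtag. Among Egr-high cells, Egr3 was at 264, 348, 239, 400, 403 and 414 CPM in hashtags 2, 4, 5, 6, 8 and 9, and Egr2 was at 203, 191, 221, 73.6, 66.7 and 62.8 CPM. Egr2 thus made a larger part of the Egr signal in hashtags 2, 4 and 5, where the members are few. These values and the 0 of the reference are what the gate set, and are a description only. Sirpa, also a gate gene, was at 589, 348, 443, 205, 208 and 202 CPM in Egr-high cells and at 487, 486, 430, 222, 219 and 206 CPM in Egr-zero cells. Free RNA held 170 CPM of Sirpa, so both states of hashtags 6, 8 and 9 lay not far above it. What part of the Sirpa UMIs was free RNA was not tested.

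Cells were also chosen on one of the Egr genes alone and read for the other. Both genes belong to the gate, so the values describe how far the genes occur together. They are no independent support for the group. In cells of the gate with at least 2 Egr3 UMIs, Egr2 was at 104, 44.3, 71.5, 39.9, 39.2 and 35.5 CPM in hashtags 2, 4, 5, 6, 8 and 9, and in cells with no Egr3 UMI it was at 12.4, 12.9, 18.9, 7.06, 9.56 and 8.70 CPM. Every hashtag was higher on the Egr3 side, and the groups did not overlap. The mean log2 ratio was 2.26 ± 0.47 (SD, n = 6), higher in 6 of 6 hashtags (exact two-sided sign-flip permutation test, p = 0.03125, the smallest that 6 pairs allow). Hashtag 4 gave only 10 cells and 4 Egr2 UMIs to this. Without it the mean was 2.32 ± 0.49 (SD, n = 5), and the exact permutation p was 0.0625, the smallest that 5 pairs allow, so no p below 0.05 could be reached. With reference cells matched on UMI total, the mean log2 ratio was 1.99 ± 0.96 (SD, n = 6, exact permutation p = 0.03125), hashtag 2 was then lowest at 0.74, and hashtag 4 rested on 4 UMIs against 0. Without hashtag 4 the matched value was 1.75 ± 0.86 (SD, n = 5, exact permutation p = 0.0625). In the other direction, Egr3 in cells chosen by at least 2 Egr2 UMIs was at 133, 370, 351 and 388 CPM in hashtags 5, 6, 8 and 9 against 20.3, 83.3, 84.7 and 97.1 CPM. That log2 ratio was 2.24 ± 0.34 (SD, n = 4), higher in 4 of 4 hashtags (exact permutation p = 0.125, the smallest that 4 pairs allow).

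The label of a cDC2 was checked on its markers. All 10 cDC2 markers, Sirpa among them, were detected in the members of hashtags 6, 8 and 9, where their summed level was 1104, 1105 and 1147 CPM against 1015, 1098 and 1096 CPM in Egr-zero cells. In the members of hashtags 2 and 5 they summed to 1452 and 1238 CPM, with 9 of the 10 detected. The 12 T or NK cell markers summed to 4.05, 6.91 and 5.08 CPM in members of the same hashtags, with Gzma and Klrb1c at 0 in all 3 of them. In hashtag 4 they summed to 1338 CPM, and 2 of its 6 members held all 59 of the T cell receptor and CD3 UMIs counted there. In hashtags 5 and 9, 1 member each held 10 of 15 and 13 of 22 such UMIs. The cDC2 label is therefore in doubt for those 4 cells on T cell transcripts. For the other members the marker sums do not settle it. The cDC2 sums include Sirpa, which the gate required and which lay not far above free RNA in hashtags 6, 8 and 9. Hashtag 4, with fewer than 10 members, entered no fit at this threshold, while the single cells of hashtags 5 and 9 are in the fits. Of 6 macrophage markers tested, 1 was called, Adgre1, higher in Egr-high than in Egr-zero cells. That call was lost in 6 of 23 settings, among them leaving out hashtag 6. The 12 macrophage markers summed to 390, 651 and 382 CPM in members of hashtags 6, 8 and 9 and to 441, 413 and 391 CPM in Egr-zero cells, with Trem2 and Cd5l at 0 in the members of all 3. The 8 cDC1 markers, which include Irf8, summed to 886, 802 and 908 CPM in these members and to 944, 917 and 906 CPM in Egr-zero cells. In members of hashtags 2 and 5 they summed to 1320 and 1762 CPM, in hashtag 5 more than the cDC2 markers, against 1674 and 1492 CPM in Egr-zero cells. The monocyte markers summed to 1456 to 2152 CPM in members of the 5 fitted hashtags, more than the cDC2 markers, and to 1533 to 1848 CPM in Egr-zero cells. Of these, Vcan and Ly6c2 were at 0 in the members of all 5, and most of the sum in hashtags 6, 8 and 9 was Plac8, at 1399, 1564 and 1380 CPM.

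The 4 other genes that mark these cells are given as a description. Nr4a2 was at 152, 370, 1173, 1113 and 980 CPM in Egr-high cells of hashtags 2, 5, 6, 8 and 9 and at 60.6, 86.3, 435, 456 and 445 CPM in Egr-zero cells. The log2 difference was 1.46 ± 0.10 (SE). Nr4a3 was at 193, 411, 2583, 2580 and 2378 CPM against 147, 159, 1596, 1688 and 1523 CPM, with a log2 difference of 0.79 ± 0.09 (SE). Ccl3 was at 894, 780 and 685 CPM in Egr-high cells of hashtags 6, 8 and 9 against 189, 160 and 182 CPM, but at 20.3 against 39.3 CPM in hashtag 2 and 76.8 against 49.1 CPM in hashtag 5. Ccl4 was at 3073, 2826 and 2379 CPM in hashtags 6, 8 and 9 against 551, 548 and 570 CPM, and at 142 against 161 CPM in hashtag 2 and 298 against 169 CPM in hashtag 5. Both chemokines were thus several-fold higher in the high trio and lower in the Egr-high cells of hashtag 2. Free RNA held 802 CPM of Ccl4, 284 of Ccl3, 404 of Nr4a2 and 1090 of Nr4a3. The Ccl3 and Ccl4 levels of Egr-zero cells lay below those values in all 5 hashtags, as did those of the members of hashtags 2 and 5, so the signal there is not read as expression. The same holds for Nr4a2 and Nr4a3 in hashtags 2 and 5, where members and Egr-zero cells all lay below the free RNA, so their differences there are not read either.

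**Figure D2:**
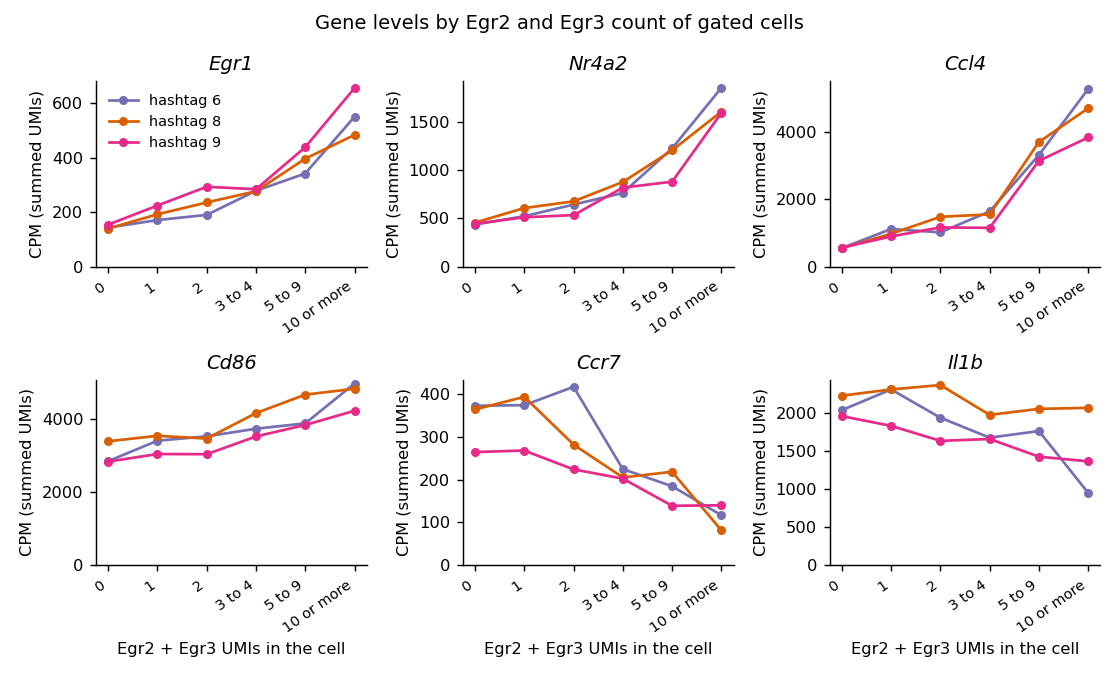
Level (y axis, CPM of summed UMIs) of 6 genes in gated cells of hashtags 6, 8 and 9, by the number of Egr2 and Egr3 UMIs in the cell (x axis, from 0 to 10 or more). Each point is 1 hashtag, with 26 to 1068 cells. Egr1, Nr4a2, Ccl4 and Cd86 are highest at 10 or more in all 3 hashtags, while Ccr7 is lower at 10 or more than at 0.

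Levels differed with the number of Egr UMIs among the members themselves. In hashtag 6, Ccl4 was at 551 CPM in cells with no Egr UMI, 1643 CPM with 3 to 4, 3323 CPM with 5 to 9 and 5290 CPM with 10 or more. Nr4a2 in the same hashtag was at 435, 763, 1224 and 1851 CPM, and Egr1 at 144, 279, 342 and 551 CPM. Ccr7, the receptor that guides DCs to lymph nodes, was at 373 CPM with no Egr UMI, 374 with 1, 417 with 2, 225 with 3 to 4, 185 with 5 to 9 and 117 with 10 or more. In hashtag 6 it was thus no lower at 1 or 2 Egr UMIs than at 0. In hashtag 8 Ccr7 was at 364 CPM with no Egr UMI, 394 with 1 and 282 with 2. In hashtag 9 it was at 265, 268 and 224 CPM, so in both hashtags it was already lower at 2 than at 0. The first 3 genes were also highest, and Ccr7 lower than at 0, among cells with 10 or more Egr UMIs of hashtags 8 and 9. The bins rest on the gate's own counts and on 129 cells in the top bin, so they are a description.

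Across all genes, Egr-high cells had Egr1, Fos, Plk3 and the costimulatory ligand gene Cd86 higher than Egr-zero cells in each of 5 hashtags. The chemokine receptor gene Ccr7 and Cd40 were lower in hashtags 6, 8 and 9. In hashtag 5 both differences were small and rested on 9 Ccr7 and 12 Cd40 UMIs in members. Neither gene was lower in hashtag 2. Of 11926 genes tested within 5 hashtags (2, 5, 6, 8 and 9), 227 were called higher (1.9%) and 112 lower (0.939%), 2.84% in all, by edgeR's quasi-likelihood test with hashtag as a block and a Benjamini-Hochberg adjusted p below 0.05. The 4 marker genes above are among the 227. Free RNA was read only for those 4 genes, Egr2, Egr3 and Sirpa. Levels of other genes in hashtags 2 and 5 were thus not held against it. DESeq2 called 152 higher and 24 lower. Without hashtag 6 the calls fell to 172 in all, and without hashtag 9 to 182. With hashtags 2 and 5 alone, which held 38 members, 72 genes were called, and they included 28 of the 227 and 9 of the 112. Members were 1.13 to 1.53 times deeper in median UMIs than Egr-zero cells of their hashtag, and with reference cells matched on UMI total 161 genes were called higher and 36 lower, of which 148 and 26 were among the calls above.

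**Figure D3:**
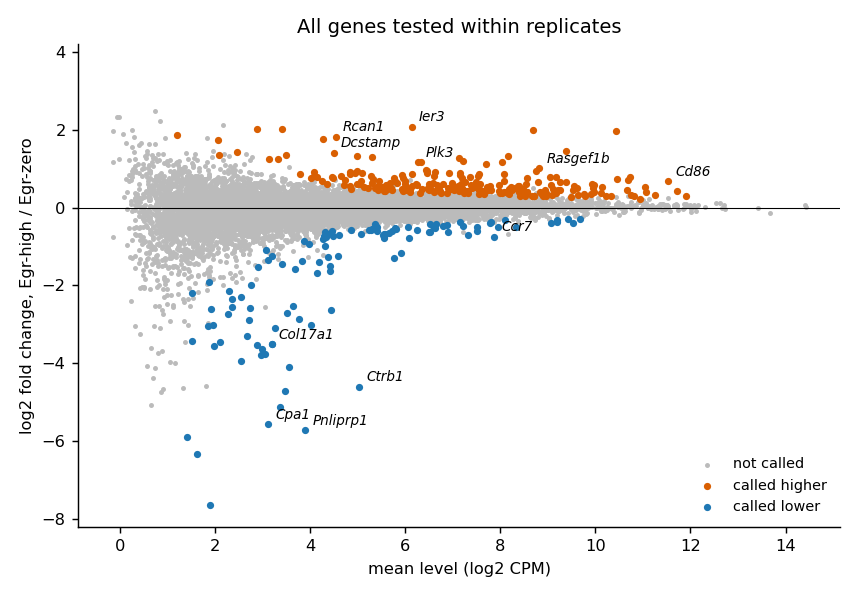
Each point is 1 gene tested, with its mean level (x axis, log2 CPM) and its fitted log2 fold change in Egr-high over Egr-zero cells (y axis). Orange points are the 227 genes called higher, blue points the 112 called lower, and grey points the others, with gate genes left out. The genes with the most negative values lie at low levels and include pancreatic enzymes.

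Of 25 AP-1 and other immediate early genes, 14 were called higher and none lower, with a median log2 fold change of 0.39, against -0.01 over all genes tested. Of the 14, Fosl2, Junb, Jun, Maff and Zfp36l2 each lost their call when hashtag 6 was left out. Fosl2 and Junb also lost it without hashtag 8, all but Jun lost it without hashtag 9, and Fosl2 and Junb lost it with DESeq2 and matched UMI totals. Egr1, the founding member of the EGR family, was at 335, 560, 360, 353 and 409 CPM in Egr-high cells of hashtags 2, 5, 6, 8 and 9 and at 160, 272, 144, 140 and 154 CPM in Egr-zero cells. All Egr-high values lay above all Egr-zero values, and the log2 fold change was 1.33 ± 0.08 (SE, edgeR adjusted p = 6.94e-09). Nr4a1, which encodes the nuclear receptor Nur77, rose by 0.78 ± 0.08 in log2 (edgeR adjusted p = 6.65e-06, higher in 5 of 5 hashtags). Its levels were 254, 348, 738, 660 and 707 CPM against 156, 156, 464, 433 and 451 CPM. Nr4a1 was not read in free RNA either.

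Ier3, a stress-induced regulator of cell survival, had the highest log2 fold change among called genes with at least 200 UMIs and the same sign in every hashtag. It was at 91.4, 45.2, 112, 149 and 109 CPM in Egr-high cells against 40.7, 37.5, 25.8, 30.6 and 22.7 CPM. In hashtag 5 the difference was small, and over all the log2 fold change was 2.08 ± 0.16 (SE, edgeR adjusted p = 8.4e-08). Fos (0.54), Ier2 (0.53) and Jun (0.39) rose by less in log2, in 5 of 5 hashtags each. Each of these calls was lost at a threshold of 2 Egr UMIs and with cells chosen on Egr3 alone. Atf3, a stress-responsive factor, rose by 0.59 ± 0.10 in log2 (edgeR adjusted p = 0.00122) in 4 of 5 hashtags, and its call was lost with DESeq2. In hashtag 2 it was lower, at 40.6 against 94.997 CPM. Zfp36, whose promoter is printed above, was at 183, 425, 1352, 1553 and 1607 CPM against 170, 220, 1070, 1186 and 1166 CPM, a rise of 0.52 ± 0.08 in log2 (edgeR adjusted p = 0.000668).

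**Figure D4:**
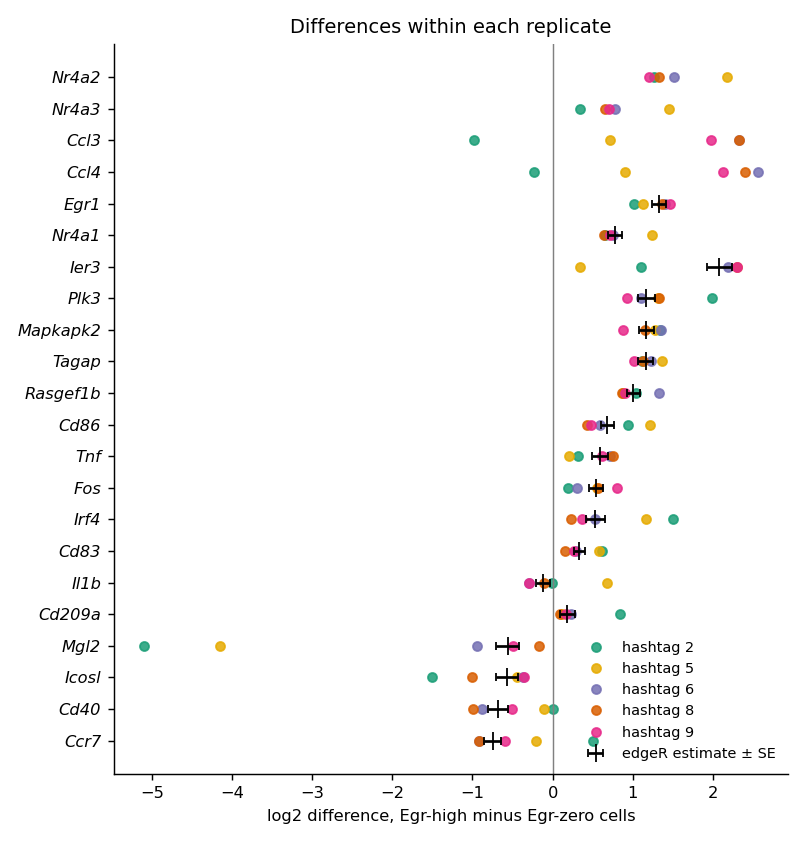
Log2 difference between Egr-high and Egr-zero cells (x axis) for 22 genes (y axis) within each of 5 hashtags (coloured points). Black ticks and bars are the edgeR estimate and its SE, not drawn for the 4 marker genes. Egr1, Plk3, Mapkapk2, Tagap and Rasgef1b lie right of 0 in every hashtag. Mgl2 had 0 UMIs in the Egr-high cells of hashtags 2 and 5, so those 2 points depend on the prior count.

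Signalling genes outside the lists were among the highest. Plk3, a stress-responsive kinase, was at 122, 94.9, 104, 120 and 99.3 CPM against 29.2, 39.9, 51.0, 48.5 and 54.6 CPM, with no overlap, a log2 fold change of 1.17 ± 0.11 (SE, edgeR adjusted p = 1.44e-06). Mapkapk2, the kinase downstream of p38 that stabilises cytokine transcripts, was at 386, 389, 378, 338 and 302 CPM against 146, 169, 157, 156 and 172 CPM, also with no overlap (log2 fold change 1.17 ± 0.09, edgeR adjusted p = 8.6e-08). Tagap, a GTPase-activating protein of immune cells, rose by 1.16 ± 0.10, and Rasgef1b, an exchange factor for Rap GTPases induced in macrophages by microbial stimuli, rose by 1.01 ± 0.08 in log2. Rasgef1b was at 843, 678, 633, 501 and 448 CPM against 396, 389, 268, 281 and 252 CPM. Pstpip2, an adaptor of the actin cytoskeleton, rose by 0.96 ± 0.10. Dcstamp, a transmembrane protein of DCs and osteoclasts, rose by 1.40 ± 0.27 in log2. Its level in Egr-high cells of hashtag 2 was 152 CPM, against 13.6 to 38.6 CPM in the other 4 hashtags.

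Of 15 genes of the calcineurin and NFAT pathway, Rcan1 alone was called. It was at 34.2, 44.7 and 35.8 CPM in Egr-high cells of hashtags 6, 8 and 9 against 8.26, 10.4 and 10.7 CPM, at 27.1 against 19.3 CPM in hashtag 5 and at 20.3 against 20.5 CPM in hashtag 2. The rise was thus seen in the high trio, and the log2 fold change was 1.82 ± 0.18 (SE, edgeR adjusted p = 2.32e-06). Of 12 tested genes of ERK pathway feedback, edgeR and DESeq2 called 0 (2 at an unadjusted p below 0.05), and their median log2 fold change was -0.08.

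Ligands for T cells moved in both directions. Of 14 costimulatory and coinhibitory ligands tested, Cd86, Cd83 and Vsir were called higher and Cd40 and Icosl lower. Cd86, the costimulatory ligand of CD28, was at 903, 913, 4055, 4456 and 3774 CPM in Egr-high cells of hashtags 2, 5, 6, 8 and 9 and at 452, 415, 2854, 3398 and 2841 CPM in Egr-zero cells. It was higher in every hashtag, with a log2 fold change of 0.68 ± 0.08 (SE, edgeR adjusted p = 3.24e-05). Cd86 was not read in free RNA, so its rise in hashtags 2 and 5 was not held against that level. Cd83, which stabilises MHC class II and CD86 at the surface, rose by 0.33 ± 0.07 and Vsir by 0.58 ± 0.14. The Vsir call was lost with DESeq2 and without hashtag 6, 8 or 9, in 11 of 24 settings in all. The Cd83 call was lost in 5, among them the setting without cells holding UMIs of other cell types. That setting was fitted on 6 summed libraries in place of 10, so fewer hashtags also entered it. Cd40, the receptor for T cell help, was at 26.1, 22.0 and 29.8 CPM in hashtags 6, 8 and 9 against 51.3, 45.4 and 44.5 CPM, and at 71.1 against 68.1 CPM in hashtag 2 and 54.2 against 61.9 CPM in hashtag 5. Its log2 fold change was -0.68 ± 0.13 (SE, edgeR adjusted p = 0.00343), and the fall was seen in the high trio, with its call lost on matched UMI totals. Icosl was lower in all 5 hashtags (log2 fold change -0.57 ± 0.14, edgeR adjusted p = 0.0278), a call that was lost with DESeq2, without hashtag 8 or 9 and with matched UMI totals.

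The maturation and migration genes held no call higher and 2 lower, Ccr7 and Samsn1, of 16 tested, with a list median of -0.23 in log2. Ccr7 was at 186, 188 and 168 CPM in Egr-high cells of hashtags 6, 8 and 9 against 373, 364 and 265 CPM. In hashtag 2 it was higher, at 60.9 against 41.3 CPM, and in hashtag 5 it was at 40.7 against 49.98 CPM. The log2 fold change was -0.75 ± 0.11 (SE, edgeR adjusted p = 0.000279), and with hashtags 2 and 5 alone it was 0.04 and not called. The call was also lost with DESeq2, with cells chosen on Egr3 alone and without cells holding UMIs of other cell types. The Samsn1 call was lost without hashtag 6, 8 or 9 and with matched UMI totals. The 7 migratory DC markers, which include Ccr7, summed to 259, 313 and 294 CPM in members of hashtags 6, 8 and 9 against 503, 476 and 380 CPM. Their part in the fall was not tested.

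Among 19 cytokine and decoy genes, Tnf, Il1r2 and Il23a were called higher and none lower. Tnf, the gene of tumour necrosis factor, was at 77.97, 105 and 84.3 CPM in hashtags 6, 8 and 9 against 50.3, 63.7 and 57.3 CPM, and at 233 and 181 CPM in hashtags 2 and 5 against 180 and 166 CPM. It rose by 0.59 ± 0.10 in log2 (edgeR adjusted p = 0.00123, higher in 5 of 5 hashtags). The Tnf call was lost in 5 of 24 settings, among them a threshold of 2 Egr UMIs and cells chosen on Egr3 alone. Il1r2, the decoy receptor of interleukin-1, rose by 0.70 ± 0.14, but lost its call with matched UMI totals. Il23a, named here after its value was seen, had a log2 fold change of 0.76 ± 0.17, higher in 4 of 5 hashtags. Its call was lost without hashtag 6, 8 or 9 and with matched UMI totals, and its sign changed without cells holding UMIs of other cell types. Il1b was not called, at 1562, 2016 and 1518 CPM against 2036, 2225 and 1957 CPM in hashtags 6, 8 and 9 (log2 fold change -0.12 ± 0.09, edgeR adjusted p = 0.699). Il12b was not called either, with 10 UMIs in all members (log2 fold change -1.79 ± 0.64, edgeR adjusted p = 0.182). Il10 and Itgb8 held too few UMIs to be tested, with 43 and 7 UMIs in the members of the 5 hashtags. Beside Ccl3 and Ccl4, edgeR and DESeq2 called 0 of 10 other chemokines tested (3 at an unadjusted p below 0.05).

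Genes of antigen presentation gave no call. Of 15 MHC class II presentation genes, edgeR and DESeq2 each called 0, and 3 had an unadjusted p below 0.05 in edgeR. Their median log2 fold change was 0.02. In hashtags 6, 8 and 9 the level of Cd74, the invariant chain, was 11663, 12727 and 11285 CPM, against 12338, 13059 and 12254 CPM in Egr-zero cells. Both tools also called 0 of 19 Toll-like receptor and adaptor genes (2 at an unadjusted p below 0.05) and 0 of 14 retinoic acid and TGF-beta genes (3 unadjusted). Aldh1a2, which makes retinoic acid, had a log2 fold change of 0.33 ± 0.38 with 94 UMIs in the members.

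Of 32 genes of DC2 identity and subtype, Irf4 and Cd101 were called higher and Mgl2 lower. Irf4, a transcription factor needed by cDC2, was at 223, 154, 370, 346 and 363 CPM against 75.4, 72.0, 272, 303 and 294 CPM, a rise of 0.53 ± 0.12 in log2 (edgeR adjusted p = 0.0148). It was higher in every hashtag, by more in hashtags 2 and 5. The Irf4 call was lost in 4 of 24 settings, among them cells chosen on Egr3 alone or on Egr2 alone. Mgl2, a lectin of a cDC2 subset, was at 0 in the 38 members of hashtags 2 and 5 and at 23.2, 37.4 and 32.1 CPM in hashtags 6, 8 and 9 against 47.7, 43.1 and 47.6 CPM (log2 fold change -0.56 ± 0.15, edgeR adjusted p = 0.0437). That call was lost with DESeq2 and without hashtag 2, 6 or 9, and the Cd101 call with DESeq2 and without hashtag 6 or 9. Cd209a (0.18 ± 0.10), Klf4 (0.25 ± 0.11), Plet1 (-0.13 ± 0.13) and Clec10a (-0.59 ± 0.25) were not called.

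Other lists held few calls. Hspa1a, Hspa1b and Dnajb1, which encode stress-induced chaperones, were called higher among 15 heat shock and chaperone genes. Hspa1a was at 193, 483, 39.7, 42.7 and 137 CPM in hashtags 2, 5, 6, 8 and 9 against 161, 310, 27.8, 31.0 and 88.2 CPM, a rise of 0.60 ± 0.10 in log2 (edgeR adjusted p = 0.00081). The Dnajb1 call was lost without hashtag 6 or 9 and with matched UMI totals, and the Hspa1b call without hashtag 9. The Hspa1a call was lost in 5 of 24 settings and its sign changed when cells were chosen on Egr3 alone. Among 19 NF-kB subunit and feedback genes, Rel (0.32) and Nfkbid (0.62) were called higher and Bcl3 (-0.60) lower. The Rel call was lost in 15 of 24 settings, among them DESeq2, matched UMI totals and leaving out hashtag 5, 6 or 9. The Bcl3 call was lost with DESeq2 and without hashtag 6 or 9. Pmaip1 among 15 survival and DNA damage genes rose by 0.45, and Pcna among 18 cell cycle genes rose by 0.50, with their calls lost on matched UMI totals. Pmaip1 also lost it without hashtag 2, 5 or 8, and Pcna without hashtag 6. Rsad2 (2.02), Ifit1 (1.73) and Ifit3 (1.42) were called among 16 interferon-stimulated genes, and the Ifit1 and Ifit3 calls were lost without hashtag 6 or 9 and with matched UMI totals. Rsad2 was at 13.2, 13.01 and 27.6 CPM in hashtags 6, 8 and 9 against 2.32, 6.48 and 4.56 CPM, and at 0 in the 12 members of hashtag 2. Gpr183 (0.51) and Gpr35 (0.81) among 17 G protein-coupled and chemokine receptors were called higher. Both calls were lost with DESeq2 and without hashtag 9, and Gpr183 also without hashtag 5 or 6. Cd36 (-0.76) among 13 sterol and lipid genes and Ptgs1 (-2.20) among 9 lipid mediator genes were called lower, the first lost with DESeq2, with matched UMI totals and without hashtag 9, the second without hashtag 2 or 8.

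The genes with the lowest log2 fold changes, by the same limits, were not typical of cDC2. Pnliprp1, Cpa1, Cpb1, Ctrb1 and Cela2a encode pancreatic digestive enzymes, and Col17a1 is a marker of RORgt+ DCs. In Egr-zero cells of hashtag 9, 1 of 1068 cells held 3232 of the 3316 UMIs of 6 pancreatic enzyme genes, and no member held more than 2. Pnliprp1 was at 52.6 CPM in those Egr-zero cells, at 1.16 to 9.08 CPM in those of the other 4 hashtags, and at 0 to 1.22 CPM in Egr-high cells. Those calls rest on a few cells. Col17a1 was at 25.1, 41.9 and 10.7 CPM in Egr-zero cells of hashtags 2, 5 and 6, at 0.49 and 1.66 CPM in hashtags 8 and 9, and held 4 UMIs in the members of these 5 hashtags (log2 fold change -3.51 ± 0.55, edgeR adjusted p = 0.000574). The 5 RORgt+ DC markers summed to 179 and 219 CPM in Egr-zero cells of hashtags 2 and 5, against 102 and 49.7 CPM in members, and to 10.9 to 44.2 CPM against 4.47 to 11.4 CPM in hashtags 6, 8 and 9. Prdm16, which defines that type, was called lower, and so were 3 of 5 stromal genes tested (Col1a2, Col3a1 and Dcn), whose calls were lost without hashtag 2, 5 or 6. Without cells that held a UMI of these RORgt+ DC, pancreatic or collagen genes, a setting added after they were seen, 171 of the 227 and 62 of the 112 calls were also made. Adam12, with 3 UMIs in the members, then had a log2 fold change of 0.37 in place of -3.64.

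Egr-high cells were also set against the 1959 Sirpa-positive cells with at least 2 Tnfsf9 UMIs, the activated cells that the gate keeps out. These Tnfsf9-positive cells were taken at any Egr count, and 23.6% of them held at least 3 Egr UMIs. The sides thus differ both in Tnfsf9 and in the choice on Egr count, which cannot be told apart here. Only hashtags 6, 8 and 9 had enough Tnfsf9-positive cells (550, 536 and 866 cells), so 3 pairs with 2 residual degrees of freedom entered the fit. The comparison uses the same Egr-high libraries as the one above and is no independent support for it. Of 11054 genes tested, edgeR called 704 higher in Egr-high cells (6.37%) and 940 lower (8.5%), 14.9% in all, and DESeq2 called 283 and 469. Of 19 NF-kB subunit and feedback genes, 14 were called lower and none higher, with a median log2 fold change of -0.54, against 0.01 over all genes. Nfkbia, the feedback inhibitor of NF-kB, was at 764, 749 and 714 CPM in Egr-high cells against 1321, 1378 and 1219 CPM (log2 fold change -0.88 ± 0.03, edgeR adjusted p = 5.59e-10). Icam1, an adhesion molecule, was at 244, 222 and 226 CPM against 519, 580 and 504 CPM (-1.28 ± 0.06). Neither gene's groups overlapped.

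MHC class II presentation genes were lower in 11 of 15 tested and higher in none, led by Ciita (-0.53 ± 0.07), the master regulator of that class. Survival and DNA damage genes were lower in 10 of 15, with Bcl2l1 (-1.23 ± 0.07), Bcl2l11 (-1.03 ± 0.06) and Bcl2a1a (-0.90 ± 0.05) showing the largest differences. Of 15 costimulatory and coinhibitory ligands, 8 were lower and 3 higher. Cd40 was at 26.1, 22.0 and 29.8 CPM against 80.4, 83.6 and 76.9 CPM (-1.67 ± 0.11), and Tnfsf4, the ligand of OX40, at 1.47, 0 and 0.73 CPM against 7.19, 7.61 and 6.94 CPM. Cd86, by contrast, was higher in Egr-high cells, at 4055, 4456 and 3774 CPM against 3490, 3552 and 3139 CPM (0.20 ± 0.02, edgeR adjusted p = 5.06e-05). Of 21 cytokine and decoy genes, 7 were lower, among them Il1b (-0.89) and Il12b (-3.26), and 3 were higher. Il22ra2, which encodes the decoy receptor of interleukin-22, was at 6.25, 60.999 and 5.81 CPM in Egr-high cells of hashtags 6, 8 and 9 against 0.38, 2.81 and 0.62 CPM (4.03 ± 0.27, edgeR adjusted p = 9.05e-08). Hashtag 8 was the highest on both sides, and all 3 hashtags were higher in Egr-high cells.

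**Figure D5:**
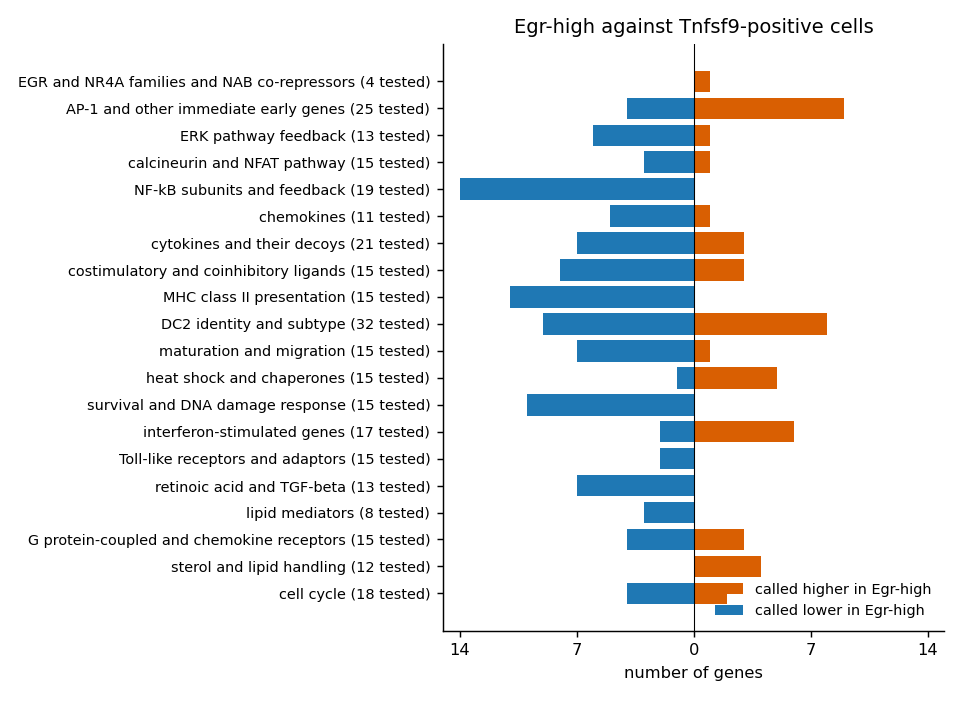
Number of genes of each of 20 pathway lists (y axis, with the number tested) that were called higher (orange, right) or lower (blue, left) in Egr-high cells against Tnfsf9-positive cells in 3 hashtags. The 4 marker genes and gate genes are left out. NF-kB genes have 14 lower and none higher, and AP-1 and other immediate early genes have 9 higher and 4 lower.

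Of 25 AP-1 and other immediate early genes, 9 were called higher and 4 lower, with a median log2 fold change of 0.06 against 0.01 over all genes. Zfp36l2, which promotes decay of AU-rich transcripts, had a log2 fold change of 1.12 ± 0.05, and Fos was at 303, 458 and 466 CPM against 187, 208 and 218 CPM (0.91 ± 0.08, edgeR adjusted p = 9.29e-07). Egr1 was higher by 0.88 ± 0.05. Esrrg (2.17), Ass1 (1.82), Dcstamp (1.77) and Usp2 (1.68) had the next highest log2 fold changes after Il22ra2, among called genes with at least 200 UMIs and the same sign in every hashtag. Pnliprp1 (-4.24), Cpb1 (-3.44) and Reg1 (-3.06), genes of the exocrine pancreas, were among the lowest together with Tnfsf4 (-3.29) and Il12b. In Tnfsf9-positive cells of hashtag 6, 2 of 550 cells held 342 of the 407 UMIs of the pancreatic enzyme genes counted above. In hashtag 9, 4 of 866 cells held 628 of 698, and in hashtag 8, 1 of 536 held 28 of 76. The Il12b call was lost with DESeq2. Mgl2 (-1.12) and Clec10a (-1.30) were lower and Tbx21 (0.998) higher among 32 DC2 genes, of which 8 were higher and 9 lower. Interferon-stimulated genes were higher in 6 of 17 and lower in 2.

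Against the 1016 cells of the gate with exactly 1 Egr UMI, 80 of 10898 genes were called higher (0.734%) and 46 lower (0.422%) in 5 hashtags, 1.16% in all, again with the same Egr-high libraries. Egr1 was at 335, 560, 360, 353 and 409 CPM against 221, 428, 171, 193 and 225 CPM (log2 fold change 0.85 ± 0.09, edgeR adjusted p = 1.64e-06). Mapkapk2 (0.85), Tagap (0.79), Plk3 (0.77) and Arhgap39 (0.76) rose in 5 of 5 hashtags, and Cd86 rose by 0.44 and Nr4a1 by 0.46. Snx24 (-1.16), Slc2a6 (-1.13), Aff3 (-0.84), Ern1 (-0.81) and Golph3l (-0.80) were called lower. The last 4 were at lower CPM in all 5 hashtags, while Snx24 in hashtag 2 held 1 UMI, at 10.2 against 10.03 CPM. Golph3l lost its call in 5 of 8 settings, Snx24 in 4 of 8, Slc2a6 in 3 of 8 and Ern1 in 2 of 9. Among the genes that rose, Arhgap39 lost its call in 3 of 9 settings. Egr1, Mapkapk2, Tagap, Plk3 and Aff3 lost theirs in 1 of 9, the fit without the block. Ccr7 fell by 0.84 in log2 in 4 of 5 hashtags. All 4 tested hemoglobin genes were called higher, but 2 of 407 members in hashtag 9 held 10626 of the 10779 hemoglobin UMIs there. The erythroid markers summed to 1961 CPM in members of hashtag 9 and to 30.1 to 52.1 CPM in those of the other 5 hashtags, so these 4 calls rest on 2 cells. Without hashtag 9, 27 genes were called, without hashtag 8 there were 44, and without hashtag 6 there were 63.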

How the data were processed

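Dendritic cells from 6 pooled replicates were profiled as 1 gene expression library and 1 hashtag library of the same droplets (Chromium 3' v3, per the labels' protocols). The authors deposited raw UMI counts per gene and barcode, made with Cell Ranger 8.0.1 on mm10 per the submitters' processing notes, and the handling of introns and strand is not given in the sources used. A deposited table assigns barcodes to hashtags, with the probability of each call given as a fraction. The other 15 of its 18 columns were left aside.

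Of 27679 barcodes in that table, 19239 carried 1 hashtag and 4815 were multiplets, 1706 blank and 1919 unassigned. A total of 15480 cells had at least 500 genes and at most 10% mitochondrial UMIs. No doublet caller was run, so doublets within a hashtag were not removed. Total UMIs per hashtag were 11673390 to 63633888.

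The rule's "same exclusions" were read as including Sirpa, and any Sirpa count is an alternative. Raw counts were summed per hashtag and state wherever at least 10 cells of both states were present and tested with edgeR 4.0.16 (quasi-likelihood, TMM, filterByExpr, hashtag as block), with Benjamini-Hochberg adjustment over all genes. Gate genes were left out of counts. Hashtags pair the states because both come from the same replicate. The labels do not say what a replicate holds beyond its hashtag, so p-values measure the spread between hashtags. The script was tested on simulated data. The ratio of one Egr gene in cells chosen by the other had 0.5 UMI added to each count. Alternatives used DESeq2 1.42.0 and other gates, filters and left-out hashtags.

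Named genes were the markers and gate genes, a set of 22 chosen genes, from each pathway list at most 3 called members with the same sign in every hashtag, and the 8 highest and 8 lowest called genes with the same sign and at least 200 UMIs (5 and 5 for the other comparisons). Lists with up to 5 calls are named in full, and Zfp36, Rcan1, Prdm16 and the genes of lists below the rule were named after their values were seen. The members, lists and genes were chosen with earlier results of these data known. A first look at 7 promoter motifs led to the 5 used, since 2 were in most windows. R 4.3.3 and Python 3.11.15 were used.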

Additional observations from a re-analysis of the deposited data

Results flagged for a closer look

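Of 60 groups of per-hashtag values, 6 had 1 hashtag far from the others. Chance alone flags about 1 in 20 such groups.

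In Egr-high against Egr-zero cells, Atf3 was at -1.26 in hashtag 2 and between 0.49 and 0.87 in the other 4. Cd209a was at 0.85 in hashtag 2, with the others between 0.09 and 0.23, and it was not called. Il1r2 was at 2.00 in hashtag 5, against 0.22 to 0.60 elsewhere. Nr4a1 was at 1.24 in hashtag 5, with the others between 0.65 and 0.75. Pnliprp1 was at -6.44 in hashtag 9, against -2.52 to -0.95 elsewhere, where 1 Egr-zero cell held most pancreatic UMIs. In Egr-high against Egr-low cells, Golph3l was at -4.60 in hashtag 2, whose members held no UMI of it, with the others between -0.96 and -0.59. Hashtags 2 and 5 had 12 and 26 members, and what part that played was not tested.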

How the results depend on the processing

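Hashtags pair the states, and without that replicate block 0 genes were called against Egr-zero cells (328 at an unadjusted p below 0.05) and 0 against Egr-low cells (138 unadjusted). Against Egr-zero cells, where 339 genes were called, the count was 176 with DESeq2, 530 with no low-count filter, 72 in hashtags 2 and 5, 576 in hashtags 6, 8 and 9, 197 with matched UMI totals, 147 at a threshold of 2 Egr UMIs, 645 at 5, 120 for Egr3 alone (the first and the last of these 3 with hashtag 4 in the fit), 532 without Sirpa in the gate and 134 without cells holding UMIs of other cell types. Leaving out 1 hashtag gave 172 to 386. The fits at 5 Egr UMIs and without cells holding UMIs of other cell types rested on 6 summed libraries each, against 10 in the main fit. At 5 Egr UMIs only hashtags 6, 8 and 9 were fitted, where the threshold of 3 gave 576 calls. Without cells holding UMIs of other cell types, 7921 genes were tested in place of 11926. Against Tnfsf9-positive cells (1644) the count was 752 with DESeq2 and 1192 to 1610 with 1 hashtag left out. Against Egr-low cells (126) it was 60 with DESeq2, 235 with no filter and 27 to 170 with 1 hashtag left out. At the threshold of 3 Egr UMIs, hashtag 4 held too few members to be fitted. Without it, Egr2 in cells chosen by Egr3 had a mean log2 ratio of 2.32, and 1.75 with matched UMI totals, each at an exact permutation p of 0.0625, the smallest possible.

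Of the genes named by the rule, 3 called log2 fold changes changed sign. Ccr7 went to 0.041 in hashtags 2 and 5, and Hspa1a to -0.18 for Egr3 alone. Adam12 went to 0.37 without RORgt+ DC, pancreatic or collagen cells, a setting chosen after seeing the data, as was leaving out hashtag 4. Among other called genes of the lists, Cd101, Cd36 and Fosl2 changed sign in hashtags 2 and 5. Il23a changed sign without cells holding UMIs of other cell types. Sign changes of uncalled genes are not counted. Against Egr-zero cells, Egr1, Nr4a1, Plk3, Mapkapk2, Tagap, Rasgef1b and Cd86 lost their call in 1 of 24 settings each, the fit without the block. Few members in hashtags 2, 4 and 5 limit every value there.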
